A study of Homo sapiens with 27 samples.

Results

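The UGT2B genes encode enzymes that attach glucuronic acid to steroids, bile acids and drugs, which makes them water soluble and marks them for export. UGT2B15 and UGT2B17 conjugate dihydrotestosterone and its 3-alpha-reduced metabolite in the prostate, a step that ends androgen action inside the cell, and UGT2B17 also acts on testosterone. Both genes are well known in LNCaP cells as genes that androgens repress. UGT2B28 accepts androgens and estrogens, UGT2B7 accepts many steroids and drugs, UGT2B4 acts on bile acids, UGT2B10 conjugates nicotine and other amines, and UGT2B11 acts on fatty acid metabolites. The 7 genes, UGT2B4, UGT2B7, UGT2B10, UGT2B11, UGT2B15, UGT2B17 and UGT2B28, were taken by symbol from the 20268 genes of the table, and all 7 were found.

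The study depleted CPSF1, the largest subunit of the complex that recognizes the polyadenylation signal of pre-mRNA, in 3 human prostate cancer cell lines. LNCaP is an androgen-responsive line, LNCaP95 is its androgen-independent derivative, and 22Rv1 was derived from a relapsed xenograft. Each line was infected with lentivirus for a control hairpin (CTRL sh) or for either of a pair of CPSF1 hairpins (CPSF1 sh1, CPSF1 sh2), selected with puromycin as a pool, plated at 500000 cells a well and harvested after 72 h. This gave 9 groups of 3 libraries, 27 in all, with poly(A)-selected stranded RNA. LNCaP and 22Rv1 were grown in RPMI medium with serum and LNCaP95 in the same medium without phenol red, so in comparisons with LNCaP95 line and medium cannot be told apart. Whether the 3 replicates were separate infections is not given in the sources used here. The p-values measure the spread between these libraries. Where the 6 CPSF1 sh libraries of a line are set together against its 3 controls, this spread includes the difference between the hairpins.

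The libraries held 8515624 to 15904518 counts each (median 11058723). CPSF1 fell in every line by the edgeR test described below, by 0.65 on the log2 scale in LNCaP (SE 0.0559), by 0.89 in LNCaP95 (SE 0.0790) and by 0.50 in 22Rv1 (SE 0.0625). All 9 prostate luminal markers passed the expression filter in each line, and KLK3, which encodes PSA, was at 1076 to 1150 normalized CPM in LNCaP CTRL sh, 2005 to 2036 in LNCaP95 CTRL sh and 36.9 to 42.1 in 22Rv1 CTRL sh. One library stood apart. In LNCaP CPSF1 sh1 replicate 3, the summed level of 83 genes that are high in 22Rv1 and near 0 in the LNCaP and LNCaP95 controls was 6.63% of its level in 22Rv1 CTRL sh, against 0.0542% to 0.559% in the other 17 LNCaP and LNCaP95 libraries, and albumin (ALB) was at 45.6 CPM against at most 1.41. For the UGT2B genes, the joint knockdown tests in LNCaP, the difference of the hairpins, the ratio of UGT2B17 to UGT2B15 and the difference from LNCaP95 are given with and without it. Each hairpin against the controls and the lists of other genes were tested with it only.

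The genes lie in 1 cluster on chromosome 4 (GRCh37). From the lower to the higher coordinate these are UGT2B17 (chr4:69402902-69434245, minus strand), UGT2B15 (chr4:69512348-69536346, minus), UGT2B10 (chr4:69681711-69696914, plus), UGT2B7 (chr4:69917081-69978705, plus), UGT2B11 (chr4:70065669-70080449, minus), UGT2B28 (chr4:70146217-70160768, plus) and UGT2B4 (chr4:70345883-70391732, minus). Their similarity bears on every count below, because a read from a stretch that paralogs share cannot by itself be given to 1 gene. The reads were paired, so a mate outside such a stretch can place its partner, which the windows below do not take into account. How reads that match several genes were counted is not given in the sources used here. Over the coding sequence of the canonical GENCODE transcripts, UGT2B15 and UGT2B17 were 96.5% identical, UGT2B11 and UGT2B28 97.0%, and UGT2B10 and UGT2B11 94.8%. Cut into windows of 75 bases, the aligned read length, 369 windows of UGT2B15 (17.9%) were also found in UGT2B17, where they made up 15.3% of its windows. For UGT2B11, 18.3% of windows occurred in another gene and 8.81% in another of the 7, for UGT2B28 the shares were 15.03% and 4.88%, and for UGT2B10 11.9% and 5.03%. UGT2B7 (2.26%) and UGT2B4 (0.0494%) were almost free of such windows. The other genes holding these windows were UGT2B pseudogenes.

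The coding windows of 75 bases in which the most similar paralogs differ most show what a read has to distinguish. Capitals mark the bases that differ within a pair, 10 for UGT2B15 and UGT2B17 and 5 for UGT2B11 and UGT2B28, and all 4 windows are given 5′ to 3′ along the mRNA in GRCh37.
UGT2B15 (exon 1, chr4:69535902-69535976, minus): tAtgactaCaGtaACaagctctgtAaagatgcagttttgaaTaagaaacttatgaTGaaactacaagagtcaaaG
UGT2B17 (exon 2, chr4:69433768-69433842, minus): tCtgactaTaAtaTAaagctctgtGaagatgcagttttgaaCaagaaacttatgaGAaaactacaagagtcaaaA
UGT2B11 (exon 1, chr4:70080348-70080422, minus): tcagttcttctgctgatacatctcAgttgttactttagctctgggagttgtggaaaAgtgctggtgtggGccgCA
UGT2B28 (exon 1, chr4:70146237-70146311, plus): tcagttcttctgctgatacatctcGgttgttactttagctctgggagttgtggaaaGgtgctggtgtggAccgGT

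Promoter windows are shown because UGT2B15, UGT2B10 and UGT2B11 fell together in LNCaP (below). RefSeq promoters (GRCh38.p14) matched 4 of the 7 genes. UGT2B17, UGT2B28 and UGT2B4 had no entry. The forkhead motif TATTTAC or TGTTTAC, of the family to which the prostate factor FOXA1 belongs, was searched on both strands from 250 bases before to 50 after the start. It was found in UGT2B15, UGT2B10 and UGT2B11 and not in UGT2B7, and in 5.97% of all 35116 promoters of this length. The 60 bases from 100 to 41 before the start carry the match nearest to the start in capitals, which begins 83 bases before the start in UGT2B15 and 82 in UGT2B10 and UGT2B11. The motif was chosen after these sequences were seen, and a match is a description of letters only. The windows are from similar paralogs, so the matches are not independent and cannot be weighed against the share of all promoters. UGT2B7 was under the expression filter in LNCaP, so the falls there cannot be compared between genes with and without the motif.
UGT2B15 (chr4:68670693-68670752, minus): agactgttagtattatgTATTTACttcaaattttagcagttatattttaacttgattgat
UGT2B10 (chr4:68815894-68815953, plus): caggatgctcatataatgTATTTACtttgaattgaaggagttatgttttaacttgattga
UGT2B11 (chr4:69214789-69214848, minus): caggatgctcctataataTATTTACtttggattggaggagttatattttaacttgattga
UGT2B7 (chr4:69096374-69096433, plus): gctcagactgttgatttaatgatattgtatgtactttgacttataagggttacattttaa

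The lines differed in which UGT2B mRNA they held before CPSF1 was depleted. Per kilobase of exon, the scale on which genes can be compared, the 7 genes summed to 421 ± 16.2 normalized CPM per kb in LNCaP CTRL sh (SD, n = 3), 356 ± 20.9 in LNCaP95 and 54.2 ± 0.139 in 22Rv1. In LNCaP the androgen-conjugating pair dominated, with UGT2B17 at 159 ± 5.25 and UGT2B15 at 156 ± 7.56 CPM per kb, levels that did not differ beyond their spread. UGT2B11 followed at 70.9 ± 2.78, then UGT2B10 at 21.2 ± 1.03 and UGT2B28 at 12.9 ± 1.24.

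In LNCaP95 the order was another, with UGT2B11 first at 186 ± 7.19 CPM per kb, or 52.3% of the summed level. UGT2B15 (73.6 ± 6.14) and UGT2B17 (71.8 ± 7.36) came next and overlapped, followed by UGT2B28 at 21.5 ± 1.55 and UGT2B10 at 2.34 ± 0.269. In 22Rv1, UGT2B15 alone made up 76.7% of the sum at 41.6 ± 0.237 CPM per kb. UGT2B10 was second there at 7.76 ± 0.215, followed by UGT2B4 at 2.23 ± 0.329 and UGT2B11 at 1.58 ± 0.474. UGT2B17 in 22Rv1 CTRL sh was at 0.449 ± 0.0878 CPM per kb, from 7 to 12 counts a library.

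**Figure D1:**
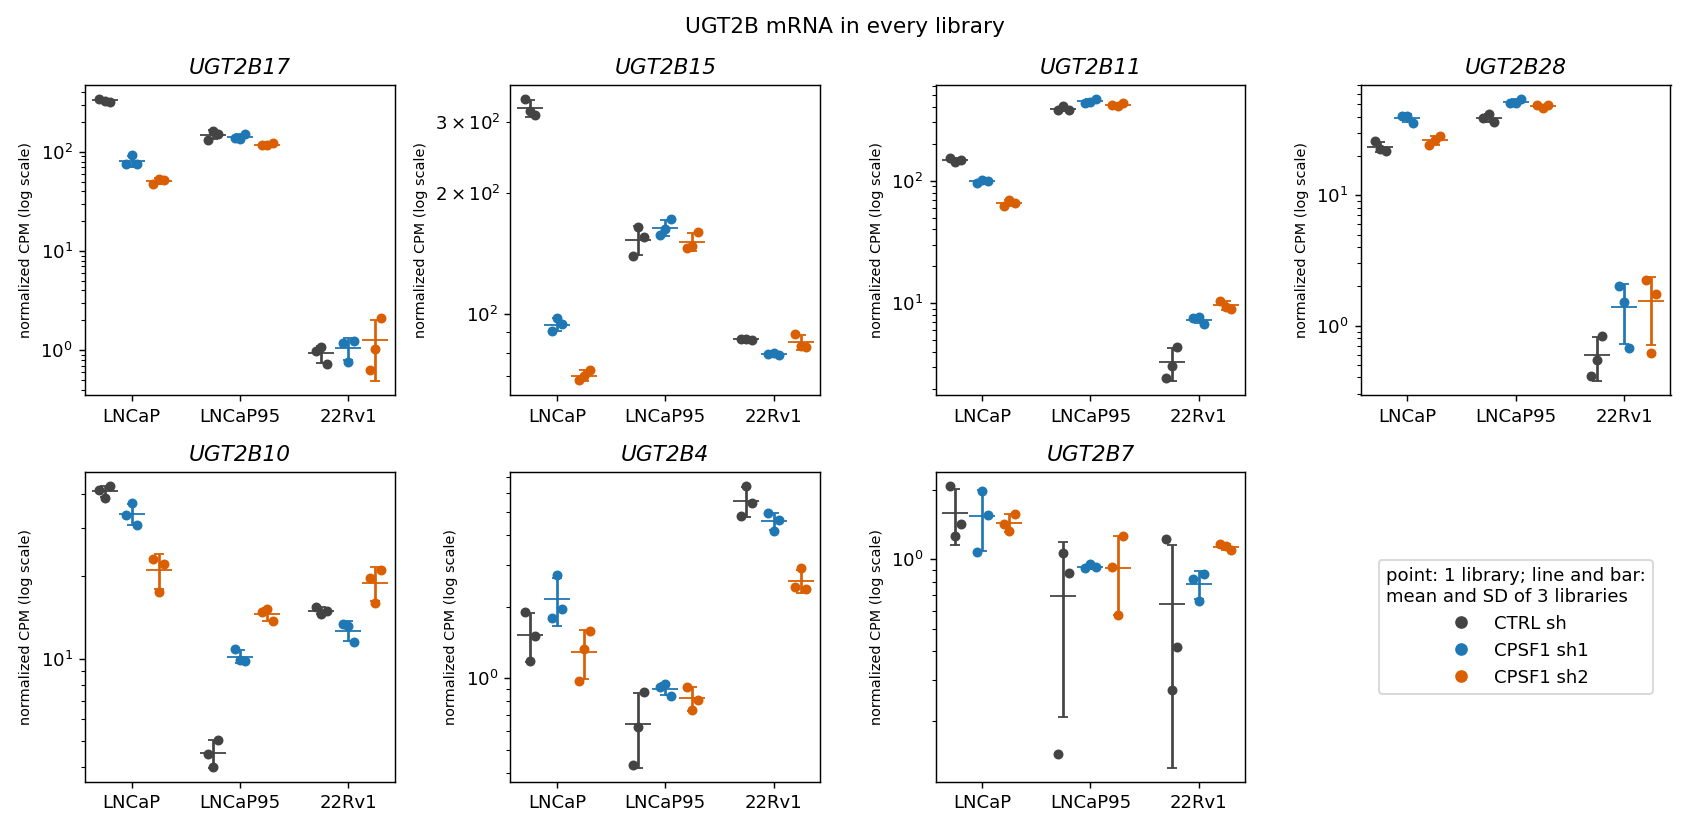
Normalized CPM (y axis, log scale with its own range in each panel) of the 7 UGT2B genes in LNCaP, LNCaP95 and 22Rv1 (x axis). Each point is 1 library, coloured by hairpin, and lines with bars give the mean and SD of 3 libraries. UGT2B17 lies between 320 and 341 CPM in LNCaP CTRL sh and at 92.3 or less in all 6 CPSF1 sh libraries of that line, and UGT2B11 rises from at most 4.39 to at least 6.74 in 22Rv1.

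Between the controls of LNCaP95 and LNCaP, 5 members could be tested and all 5 were called, 2 higher and 3 lower in LNCaP95, where 80.5% of all 10686 genes tested were called in either direction. On the log2 scale UGT2B10 was 3.20 lower in LNCaP95 (SE 0.115, edgeR quasi-likelihood test with Benjamini-Hochberg adjustment, adjusted p = 1.74e-19), UGT2B17 1.17 lower and UGT2B15 1.10 lower. UGT2B11 was 1.37 higher (SE 0.0424, adjusted p = 5.95e-21) and UGT2B28 0.72 higher. So the steroid-conjugating UGT2B28 stood on the side of UGT2B11 and not on that of UGT2B15 and UGT2B17. UGT2B28 and UGT2B11 share windows, and the part of shared reads in this likeness was not tested. The levels of 22Rv1 were not tested, since the family was already known to be low there. This does not hold for each member. In CTRL sh, UGT2B4 was highest in 22Rv1 (2.23 CPM per kb, against 0.613 in LNCaP and 0.259 in LNCaP95). UGT2B10 in 22Rv1 (7.76) was above LNCaP95 (2.34) and below LNCaP (21.2).

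Next, the effect of CPSF1 knockdown was examined in LNCaP, with the 3 CTRL sh libraries against the 6 CPSF1 sh libraries. Of the 5 members above 2 CPM in every library, 4 fell and 1 rose, where 31.0% of the 11096 genes tested were called lower and 31.1% higher. The median of the 5 log2 fold changes was -0.85, against 0.00 over all genes tested. UGT2B4 and UGT2B7 were under the filter, at 11 to 30 and 9 to 22 counts.

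UGT2B17 showed the deepest fall of the 5. Its normalized CPM was 341, 329 and 320 in CTRL sh, 74.9, 92.3 and 74.99 in CPSF1 sh1 and 47.6, 53.9 and 52.2 in CPSF1 sh2. No knockdown library came near the controls, and CPSF1 sh2 was below CPSF1 sh1 throughout. The log2 fold change was -2.32 (SE 0.138, adjusted p = 4.01e-09), a level of 0.200 of the control.

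UGT2B15, its closest paralog, behaved alike, at 342, 320 and 311 CPM in CTRL sh, 90.5, 97.4 and 94.3 in CPSF1 sh1 and 68.4, 69.9 and 72.5 in CPSF1 sh2. Again the groups did not overlap and the hairpins kept their order. The log2 fold change was -1.98 (SE 0.0921, adjusted p = 4.08e-10). As counts of the gene as deposited, UGT2B15 went from 3516 to 3787 in the controls to 756 to 1080 with knockdown.

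UGT2B11 fell less, from 154, 142 and 148 CPM in CTRL sh to 95.2, 101 and 99.9 in CPSF1 sh1 and 62.0, 69.2 and 66.3 in CPSF1 sh2, without overlap. Its log2 fold change was -0.85 (SE 0.130, adjusted p = 5.26e-05). UGT2B10, the amine-conjugating member, was at 41.2, 38.7 and 42.7 CPM in CTRL sh, at 33.6, 36.99 and 30.9 in CPSF1 sh1, and at 23.2, 17.6 and 22.3 in CPSF1 sh2. Here the first hairpin stayed close to the lowest control while the second was well below it, and the joint log2 fold change was -0.58 (SE 0.168, adjusted p = 0.00718).

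UGT2B28 moved the other way. It was at 26.1, 22.9 and 21.8 CPM in CTRL sh, at 40.7, 40.96 and 36.0 in CPSF1 sh1, and at 24.4, 26.6 and 28.6 in CPSF1 sh2. Only the CPSF1 sh1 libraries cleared the controls, while those of CPSF1 sh2 overlapped them. The joint log2 fold change was 0.48 (SE 0.154, adjusted p = 0.0143), and this call was lost without CTRL sh replicate 2 (adjusted p = 0.0551) or replicate 3 (0.0686) and with CPSF1 sh2 alone (0.0561). UGT2B28 shares 4.88% of its windows with other members that fell, whose part in its count was not tested.

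Without CPSF1 sh1 replicate 3, the library that stood apart, all 5 calls were kept. The log2 fold changes were then -2.36 for UGT2B17, -2.02 for UGT2B15, -0.63 for UGT2B10, -0.91 for UGT2B11 and 0.45 for UGT2B28. With that library kept, UGT2B mRNA per kb in LNCaP, summed over the 7 genes, was 421 ± 16.2 in CTRL sh, 172 ± 9.82 in CPSF1 sh1 and 117 ± 4.26 in CPSF1 sh2. The share of UGT2B17 in this sum was 37.7% in CTRL sh and 21.2% in CPSF1 sh2, while that of UGT2B28 was 3.05% and 12.4%. These shares are of mRNA and not of enzyme, and in bulk RNA fewer cells of a type and less RNA per cell cannot be told apart.

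**Figure D2:**
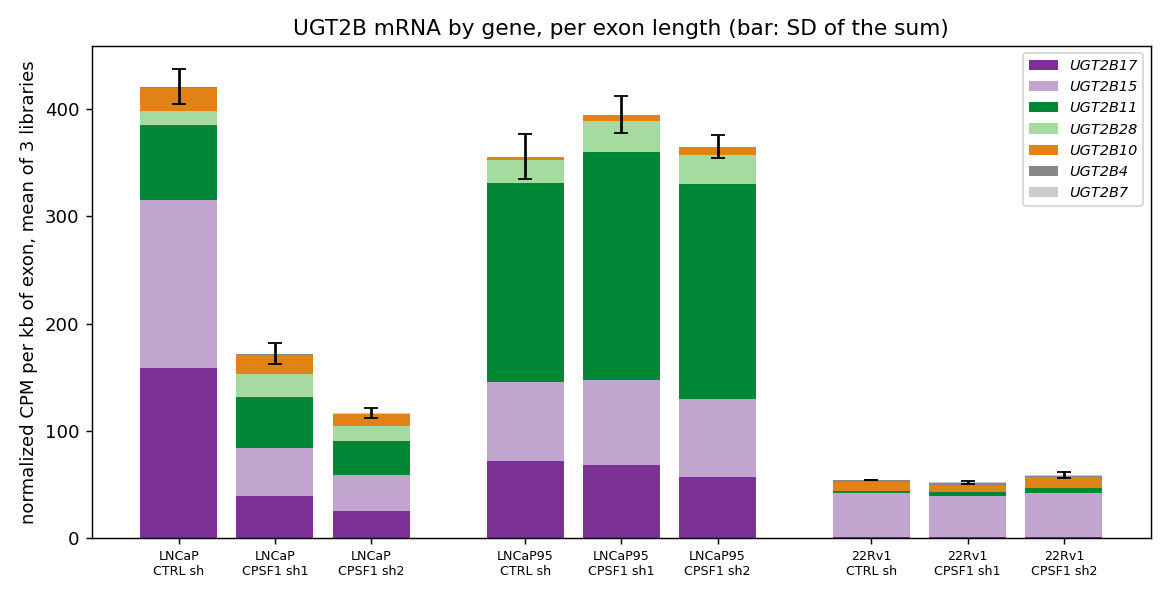
Summed level of the 7 UGT2B genes in normalized CPM per kb of exon (y axis, from 0) in the 9 groups (x axis), stacked by gene as the mean of 3 libraries, with the SD of the sum. The sum is 421 in LNCaP CTRL sh and 117 in LNCaP CPSF1 sh2, stays between 356 and 395 in LNCaP95, and between 51.8 and 58.3 in 22Rv1.

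In LNCaP95, CPSF1 knockdown did not lower the androgen-conjugating pair as it did in LNCaP. Of 5 members tested, 3 rose and none was called lower, where 33.2% of 11143 genes were called higher and 33.7% lower. The members' median log2 fold change was 0.15 against 0.00 for all genes. UGT2B15 was at 139, 164 and 155 CPM in CTRL sh, 157, 163 and 172 in CPSF1 sh1 and 145, 148 and 160 in CPSF1 sh2, so that all groups overlapped. Its log2 difference was 0.04, with a 95% interval of -0.08 to 0.16 (adjusted p = 0.597).

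UGT2B17 in LNCaP95 was at 133, 164 and 151 CPM in CTRL sh, 138, 136 and 151 in CPSF1 sh1 and 117, 116 and 122 in CPSF1 sh2. Only CPSF1 sh2 lay wholly below the controls. The joint log2 fold change was -0.20 (SE 0.0860, adjusted p = 0.0591), and it was past the threshold without CTRL sh replicate 1 (-0.28, adjusted p = 0.0239) or CPSF1 sh1 replicate 3 (-0.24, adjusted p = 0.0143), under filterByExpr, with no filter and with DESeq2 (adjusted p from 0.0232 to 0.0490).

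UGT2B10, at its lowest in LNCaP95, had the largest rise of the members there. It was at 4.47, 4.02 and 5.05 CPM in CTRL sh, 10.8, 9.92 and 9.78 in CPSF1 sh1 and 14.8, 15.1 and 13.7 in CPSF1 sh2, with 3 separate ranges. The log2 fold change was 1.44 (SE 0.184, adjusted p = 2.22e-05). In counts this was 45 to 62 per control library and 127 to 185 per knockdown library. UGT2B10 shares windows with UGT2B11, which had at least 3912 counts in every LNCaP95 library, and the part of shared reads in this rise was not tested.

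UGT2B28 rose from 39.2, 42.3 and 36.6 CPM in CTRL sh to 51.0, 50.7 and 54.8 in CPSF1 sh1 and 49.2, 47.1 and 49.0 in CPSF1 sh2, again without overlap with the controls. The log2 fold change was 0.35 (SE 0.0635, adjusted p = 0.000339). UGT2B11, the leading member in LNCaP95, went from 379, 406 and 380 CPM to 431, 441 and 466 with CPSF1 sh1 and 419, 408 and 432 with CPSF1 sh2. Its change was small, at 0.15 (SE 0.0476, adjusted p = 0.0122), and its call was lost without CTRL sh replicate 1 (0.13, adjusted p = 0.0580) or replicate 3 (0.14, adjusted p = 0.0557), under the filter of filterByExpr (0.11, adjusted p = 0.05505) and with no filter (0.10, adjusted p = 0.0934).

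In 22Rv1, 4 members could be tested, of which 1 rose and 1 fell, where 12.7% of 11728 genes were called higher and 14.3% lower. The members' median log2 fold change was 0.00, as over all genes. UGT2B15, which carries most of the UGT2B mRNA of this line, was at 86.8, 86.7 and 85.9 CPM in CTRL sh, 79.7, 79.9 and 78.9 in CPSF1 sh1 and 89.1, 83.4 and 82.5 in CPSF1 sh2. CPSF1 sh1 lay below the controls and CPSF1 sh2 around them, and the log2 difference of -0.07 had a 95% interval of -0.17 to 0.02 (adjusted p = 0.281).

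UGT2B11 rose in 22Rv1, from 2.45, 3.08 and 4.39 CPM in CTRL sh to 7.57, 7.64 and 6.74 in CPSF1 sh1 and 10.5, 9.31 and 8.98 in CPSF1 sh2. The 3 ranges were separate. In counts, 30, 34 and 42 became 70 to 83 with CPSF1 sh1 and 90 to 117 with CPSF1 sh2, and the log2 fold change was 1.38 (SE 0.189, adjusted p = 0.000179). UGT2B11 was thus lower with knockdown in LNCaP, slightly higher in LNCaP95 and higher by more in 22Rv1.

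UGT2B4, the bile acid member, was above the filter in 22Rv1 and not in the other lines. Its counts were 59, 71 and 52 in CTRL sh, 54, 44 and 48 in CPSF1 sh1 and 27, 28 and 26 in CPSF1 sh2, so the first hairpin overlapped the controls and the second was below them. The joint log2 fold change was -0.64 (SE 0.217, adjusted p = 0.0418), and this call was lost without any 1 of the 3 CTRL sh libraries (adjusted p from 0.0626 to 0.192) and without any 1 of the 3 CPSF1 sh2 libraries (0.0734 to 0.0784). UGT2B10 was at 15.4, 14.6 and 14.9 CPM in CTRL sh, 13.4, 13.1 and 11.5 in CPSF1 sh1 and 19.8, 15.9 and 21.2 in CPSF1 sh2. The hairpins lay on opposite sides of the controls, and the joint log2 difference was 0.08 (95% interval -0.25 to 0.40, adjusted p = 0.765).

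The remaining members of 22Rv1 were near the limit of these libraries. UGT2B17 had 12, 12 and 7 counts in the controls and 7 to 23 with knockdown, UGT2B28 had 5 to 8 and 6 to 25, and UGT2B7 had 3 to 15 and 7 to 13. Without the expression filter UGT2B28 was called higher (1.33, adjusted p = 0.0317), and UGT2B17 was not (0.29, adjusted p = 0.595).

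The hairpins were then taken one by one against the same 3 controls. In LNCaP, CPSF1 sh1 gave 5 calls among 5 members (62.6% of all genes were called) and CPSF1 sh2 gave 4 (64.6%). The log2 fold changes with CPSF1 sh1 and CPSF1 sh2 were -2.01 and -2.67 for UGT2B17, -1.77 and -2.19 for UGT2B15, -0.57 and -1.16 for UGT2B11, -0.26 and -0.96 for UGT2B10, and 0.75 and 0.18 for UGT2B28. CPSF1 itself was at 94.6 to 108 CPM with CPSF1 sh1 and 86.2 to 98.2 with CPSF1 sh2 in this line, ranges that overlapped. Its log2 difference of CPSF1 sh2 minus CPSF1 sh1 was -0.14 (95% interval -0.25 to -0.04). By the edgeR test this was not called (adjusted p = 0.0773), and an equal depletion by the hairpins is not shown.

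Tested against each other in LNCaP, the hairpins differed for all 5 members, each lower with CPSF1 sh2, where 14.8% of all genes differed. The log2 difference of CPSF1 sh2 minus CPSF1 sh1 was -0.66 for UGT2B17 (SE 0.0693, adjusted p = 2.19e-06), -0.70 for UGT2B10, -0.59 for UGT2B11, -0.56 for UGT2B28 and -0.42 for UGT2B15. Without CPSF1 sh1 replicate 3 these 5 differences were all still called, from -0.77 to -0.42.

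In LNCaP95, CPSF1 sh1 gave 3 calls among 5 members (66.4% of all genes) and CPSF1 sh2 gave 4 (73.4%), the added one being UGT2B17 at -0.33 (SE 0.0614, adjusted p = 6.76e-05). Between the hairpins 2 members differed, where 34.1% of all genes did. UGT2B17 was 0.25 lower with CPSF1 sh2 (SE 0.0607, adjusted p = 0.00343) and UGT2B10 was 0.52 higher (SE 0.0998, adjusted p = 0.000552).

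In 22Rv1, CPSF1 sh1 gave 1 call among 4 members (19.9% of all genes), UGT2B11 at 1.17, and CPSF1 sh2 gave 3 (40.0%). These were UGT2B11 at 1.56, UGT2B10 at 0.34 (SE 0.107, adjusted p = 0.0189) and UGT2B4 at -1.12 (SE 0.171, adjusted p = 9.67e-05). Between the hairpins UGT2B10 (0.59, adjusted p = 0.00358) and UGT2B4 (-0.84, adjusted p = 0.00778) differed, where 11.3% of all genes did.

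**Figure D3:**
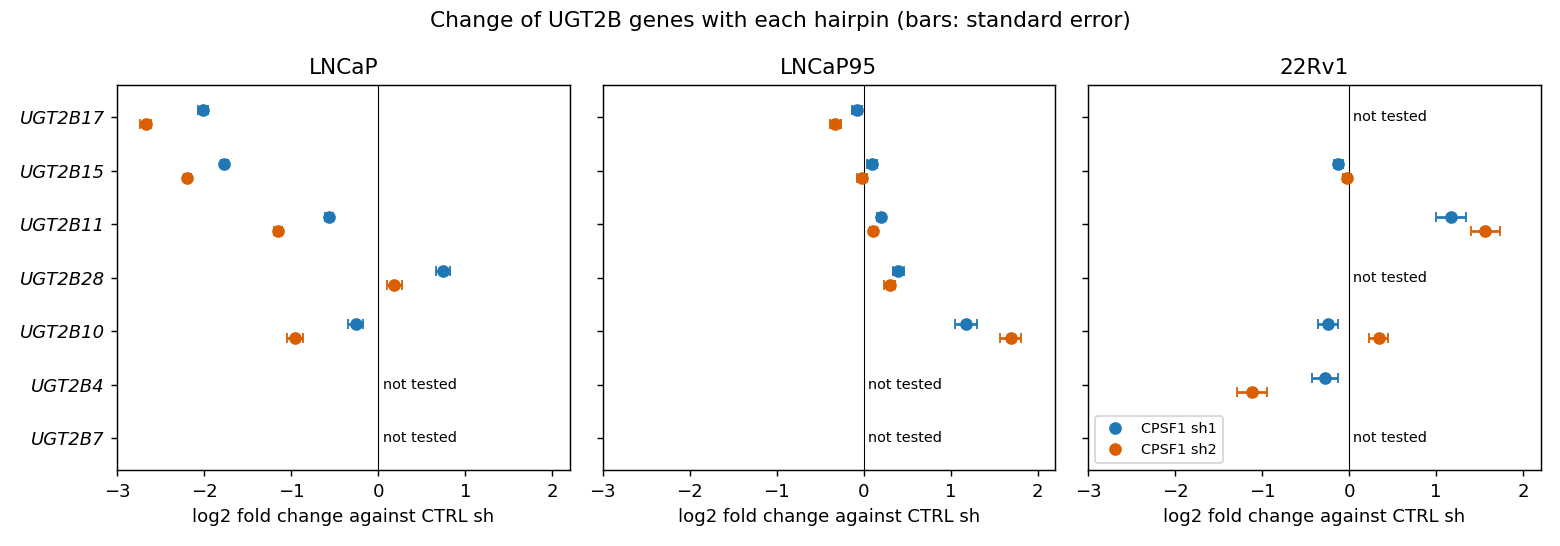
Log2 fold change against CTRL sh (x axis) of each UGT2B gene (y axis) with CPSF1 sh1 and CPSF1 sh2 in the 3 lines, with bars for the standard error. Members not above 2 CPM in every library of the line are marked as not tested. In LNCaP, UGT2B17 lies at -2.01 and -2.67 and UGT2B28 alone lies above 0, while in LNCaP95 UGT2B10 lies at 1.17 and 1.69.

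Whether the lines differed in their response was tested as such. Between LNCaP95 and LNCaP, 4 of 5 members differed, all 4 higher in LNCaP95, where 60.9% of 10686 genes differed in either direction. The difference of the log2 fold changes was 2.14 for UGT2B17 (SE 0.0800, adjusted p = 6.35e-18), 2.02 for UGT2B15, 2.04 for UGT2B10 and 1.02 for UGT2B11. For UGT2B28 it was -0.12, with a 95% interval of -0.30 to 0.06 (adjusted p = 0.282). The hairpins were on opposite sides here, at -0.35 with CPSF1 sh1 alone (adjusted p = 0.00693) and 0.11 with CPSF1 sh2 alone (adjusted p = 0.382). Without LNCaP CPSF1 sh1 replicate 3 the same 4 members differed and UGT2B28 stood at -0.15 (adjusted p = 0.166).

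Between 22Rv1 and LNCaP, 3 members could be tested and all 3 were higher in 22Rv1, where 50.1% of 10579 genes differed. The differences were 2.24 for UGT2B11 (SE 0.143), 1.92 for UGT2B15 (SE 0.0544) and 0.67 for UGT2B10 (SE 0.130), the last of which was 0.04 (adjusted p = 0.839) with CPSF1 sh1 alone. Between 22Rv1 and LNCaP95, UGT2B11 was 1.22 higher and UGT2B10 1.39 lower in 22Rv1, where 60.2% of 10514 genes differed, and UGT2B15 had a difference of -0.12 (95% interval -0.25 to 0.02, adjusted p = 0.148). These comparisons share the libraries of each line with the ones above.

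UGT2B17 and UGT2B15 were also compared with each other inside each library, a measure that does not depend on depth. In LNCaP CTRL sh UGT2B17 had 99.97%, 103% and 103% of the count of UGT2B15. With CPSF1 sh1 it had 82.8%, 94.7% and 79.5%, and with CPSF1 sh2 69.7%, 77.1% and 71.9%. All 6 knockdown libraries were below the 3 controls. The log2 ratio changed by -0.37 (exact permutation test, two-sided, p = 0.0238, 6 against 3 libraries), and by the same -0.37 without CPSF1 sh1 replicate 3 (exact permutation test, p = 0.0357). The comparison was chosen after the counts were seen, and 0.0238 is the smallest p that 6 against 3 libraries can give. By the same test the p was 0.0714 without any 1 of the 3 controls and 0.1 with either hairpin alone.

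LNCaP95 showed a shift of this ratio too, although neither gene was called there with both hairpins together. The share was 95.8%, 99.7% and 96.8% in CTRL sh, 87.7%, 83.6% and 88.2% in CPSF1 sh1 and 80.7%, 78.8% and 76.7% in CPSF1 sh2, a log2 change of -0.24 (exact permutation test, two-sided, p = 0.0238). This p is the smallest that 6 against 3 libraries can give, the comparison was chosen after the counts were seen, and with 1 hairpin alone the p was 0.1, the smallest that 3 against 3 can give. Without any 1 of the 3 LNCaP95 controls the p of this test was 0.0714. In 22Rv1, UGT2B17 had 0.703% to 2.55% of the count of UGT2B15, although 15.3% of its windows are shared with it.

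Other genes of the pathway were taken from chosen lists. UDP-glucuronic acid, the sugar donor of every UGT, is made by UGDH from glucose-derived UDP-glucose and carried into the endoplasmic reticulum. Of 6 genes of this supply, 2 rose and 1 fell of 5 tested in LNCaP, 1 rose and 4 fell of 5 in LNCaP95, and none rose and 2 fell of 6 in 22Rv1. These counts, and those of the lists below, stand beside the calls over all genes, which for LNCaP were 31.1% higher and 31.0% lower, for LNCaP95 33.2% higher and 33.7% lower, and for 22Rv1 12.7% higher and 14.3% lower, and in lists this short no count is read as particular to the list. In LNCaP95 the glucose transporter SLC2A1 fell by 1.30 on the log2 scale and UGDH by 1.07 (adjusted p = 1.42e-08), from 521 to 545 CPM in CTRL sh to 240.4 to 275 in the knockdown libraries. In LNCaP UGDH rose by 0.21 (adjusted p = 0.000772) and the nucleotide sugar transporter gene SLC35B1 by 0.34. SLC35B1 rose by 0.14 in LNCaP95 as well. SLC35D2, another nucleotide sugar transporter, fell by 0.77 in LNCaP, by 0.89 in LNCaP95 and by 0.52 in 22Rv1, where SLC2A1 fell by 0.37. In LNCaP, then, UGDH mRNA was higher and UGT2B15 and UGT2B17 mRNA lower with knockdown, whereas in LNCaP95 UGDH fell and UGT2B15 was not called. UGT2B17 in LNCaP95 was not called with both hairpins together (-0.20) and was called lower with CPSF1 sh2 (-0.33).

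Androgens are also reduced, oxidized and sulfated. Of 20 genes of these steps, 19 were in the table, of which 7 were tested in LNCaP (2 higher, 1 lower), 6 in LNCaP95 (1 higher, 3 lower) and 11 in 22Rv1 (0 higher, 6 lower). The sterol sulfotransferase SULT2B1 fell by 1.65 in LNCaP and by 1.26 in LNCaP95. Steroid sulfatase (STS) rose by 1.30 in LNCaP (SE 0.0923), HSD17B10 rose by 0.48 there and by 0.57 in LNCaP95, and the 5-alpha-reductase SRD5A1 fell by 0.90 in LNCaP95. In 22Rv1 the reductases AKR1C3 and AKR1C1 fell by 1.29 and by 0.76.

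Outside the 7 genes, the other UDP-glycosyltransferases were mostly below the filter. Of 16 genes of this list only UGT8, a galactosyltransferase, and GUSB, the lysosomal beta-glucuronidase that removes glucuronic acid, passed the filter in each line. GUSB fell by 0.44 in LNCaP, by 0.12 in LNCaP95 and by 0.33 in 22Rv1, while UGT8 rose by 0.46 in LNCaP95 and fell by 0.82 in 22Rv1. Of 4 exporters of glucuronides, only 1 passed the filter in LNCaP, 1 in LNCaP95 and 3 in 22Rv1. Of those tested, ABCC4 fell by 0.75 in LNCaP95 and no other was called in the comparison of 3 with 6 libraries. The exporters under the filter could not be called, and their change is not known from these tests.

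Of 12 factors known to act on UGT2B promoters, 4 fell of 6 tested in LNCaP, 1 rose and 3 fell of 6 in LNCaP95, and none was called of 7 in 22Rv1, against 31.0%, 33.7% and 14.3% of all genes called lower. PPARA fell by 0.63 in LNCaP and by 0.86 in LNCaP95, FOXA1 fell by 0.48 in LNCaP (SE 0.0349), POU2F1 by 0.26 in LNCaP95, and the vitamin D receptor gene VDR rose by 1.23 in LNCaP95. The part of these factors in the UGT2B changes was not tested.

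Of 10 neighbours of the chromosome 4 cluster, TMPRSS11E fell by 1.04 and YTHDC1 by 0.10 in LNCaP, and YTHDC1 by 0.52 in LNCaP95. The prostate luminal markers, 9 in all, included 2 that rose and 6 that fell in LNCaP. For LNCaP95 these numbers were 1 and 6, and for 22Rv1 1 and 2, against 31.1%, 33.2% and 12.7% of all genes called higher and 31.0%, 33.7% and 14.3% lower. KLK3 fell by 1.62 in LNCaP and by 0.95 in LNCaP95 and rose by 0.42 in 22Rv1, and TMPRSS2 fell by 0.54, by 1.57 and by 0.58. KRT8 rose by 0.38 in LNCaP and fell by 0.43 in LNCaP95, HOXB13 fell by 0.29 in LNCaP and rose by 0.27 in LNCaP95, and KRT18 fell by 0.21 in LNCaP95 and by 0.17 in 22Rv1. KLK3, a gene that androgens induce, and UGT2B15 and UGT2B17, genes that they repress, were thus all lower with knockdown in LNCaP. Of 5 liver markers, ALB alone passed the filter and in 22Rv1 alone, where it fell by 0.21. Of 4 blood and stromal markers in the table, COL1A1 passed the filter, and fell by 0.71 in LNCaP and by 0.40 in LNCaP95, which was not related to the UGT2B values by any test.

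Genes with the most similar pattern over the 9 group means of log2(CPM + 1) were sought among 13480 genes, as a description over 9 points that share their lines and controls. These points include the differences between the lines, so a high r need not mean a like response to knockdown. For UGT2B17 these were SEPT6, MAGEA10 and NKD1 (Pearson r 0.995, 0.994 and 0.994), and for UGT2B15 C1orf115, SDC4 and ANKRD36 (0.963, 0.943 and 0.935). UGT2B11 was closest to GAS6, TMC6 and GM2A (0.996, 0.995 and 0.994) and UGT2B28 to ANXA6, HDDC2 and ZNF613 (0.997, 0.996 and 0.995). UGT2B10 was closest to PURA, KAT2A and ZNF584 (0.959, 0.957 and 0.954). No gene was shared between these lists. SDC4, the gene of a cell surface proteoglycan, was for instance at 77.7 CPM in LNCaP CTRL sh and 32.6 and 32.1 with the hairpins, and at 55.6, 49.8 and 48.1 in LNCaP95. HDDC2, however, was at 71.9 CPM in LNCaP CTRL sh and 76.1 with CPSF1 sh1, where UGT2B28 was at 23.6 and 39.2.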

How the data were processed

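RNA was measured by stranded mRNA sequencing in 27 libraries. The authors aligned reads to GRCh37 with HISAT2 2.1.0 and counted reads per gene over exons, by strand, with Subread (2.0.3 per the labels), and deposited raw counts, used here as they are. Treatment of reads that match several genes is not given in the sources used here. Genes above 2 CPM in every library of a fit were kept, TMM-normalized and tested with the quasi-likelihood F-test of edgeR 4.0.16 (R 4.3.3, legacy form), adjusted by Benjamini-Hochberg over all genes tested, with a threshold of 0.05. Standard errors are the fold change over the root of F. Normalized CPM used TMM factors over all 27 libraries. Fits held the 9 libraries of a line, or the 18 of a pair of lines. The scripts were tested on simulated data. DESeq2 1.42.0, other filters, normalizations and left-out libraries were tried. All 7 genes were named. Of each list, up to 2 called genes with the largest rise and up to 2 with the largest fall per line were named, except a result that is not reported here. The 3 most similar genes were named per member above 2 CPM. Members and lists were chosen with earlier results of these data known. The 22Rv1 differences between lines and the UGT2B17 to UGT2B15 ratio were added after seeing the data.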

Additional observations from a re-analysis of the deposited data

Results flagged for a closer look

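The response of UGT2B genes to CPSF1 knockdown differed between lines by a test of the difference itself in 9 of the cases tested, all but those of UGT2B28 between LNCaP95 and LNCaP and of UGT2B15 between 22Rv1 and LNCaP95. Of all genes tested, 60.9% differed between LNCaP95 and LNCaP, 50.1% between 22Rv1 and LNCaP, and 60.2% between 22Rv1 and LNCaP95. For LNCaP95 minus LNCaP the difference of log2 fold changes was 2.14 for UGT2B17, 2.02 for UGT2B15, 2.04 for UGT2B10 and 1.02 for UGT2B11. For 22Rv1 minus LNCaP it was 1.92 for UGT2B15, 0.67 for UGT2B10 (0.04, adjusted p = 0.839, with CPSF1 sh1 alone) and 2.24 for UGT2B11, and for 22Rv1 minus LNCaP95 it was -1.39 for UGT2B10 and 1.22 for UGT2B11. Dixon's test for an outlying value was not applied to the UGT2B genes, since each group has 3 libraries.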

How the results depend on the processing

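Counts of called members moved as follows. With CPSF1 sh2 alone, 0 members rose in LNCaP, 1 fell in LNCaP95 and 2 rose in 22Rv1. With CPSF1 sh1 alone, 0 fell in 22Rv1, the knockdown effect was lower in LNCaP95 than in LNCaP for 1 and lower in 22Rv1 than in LNCaP95 for 2, as with library size alone (2). With DESeq2, 1 fell in LNCaP95. Under filterByExpr and with no filter, where all 7 members were tested, 1 fell in LNCaP95, 2 rose in 22Rv1, 5 had a lower baseline level in LNCaP95 than in LNCaP, the knockdown effect was lower in 22Rv1 than in LNCaP for 1, and against LNCaP95 it was lower in 22Rv1 for 2 and higher for 2. The rise of UGT2B11 in LNCaP95 lost its call under both. With no filter 3 were lower with CPSF1 sh2 than with CPSF1 sh1 in LNCaP95. Directions turned for values near 0: UGT2B15 in LNCaP95 was -0.0013 under filterByExpr, -0.0095 with no filter, -0.017 with CPSF1 sh2 alone and -0.028 without CTRL sh replicate 1, UGT2B10 in 22Rv1 was -0.24 with CPSF1 sh1 alone and -0.025 without CPSF1 sh2 replicate 3, and the UGT2B28 difference between LNCaP95 and LNCaP was 0.11 with CPSF1 sh2 alone. Leaving out 1 library at a time gave 0 to 1 members higher in LNCaP, 2 to 3 higher and 0 to 1 lower in LNCaP95, 0 to 1 lower in 22Rv1, and 1 to 2 with a lower knockdown effect in 22Rv1 than in LNCaP95 (2 without LNCaP95 CTRL sh replicate 2). The change of UGT2B15 in LNCaP95 was then -0.028 to 0.093 and that of UGT2B10 in 22Rv1 -0.025 to 0.15. The UGT2B17 to UGT2B15 ratio changed by -0.42 to -0.33 in LNCaP and by -0.26 to -0.22 in LNCaP95.

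With replicate number as a block, the fall of UGT2B4 in 22Rv1 lost its call (-0.63, adjusted p = 0.0733), leaving 0 members lower there, and no other count of calls moved by over 1.5 times. Whether the numbers pair the libraries is not settled by their deviations from the group means. Those of same-numbered libraries correlated above 0.1 in 3 LNCaP pairs, 3 LNCaP95 pairs and 1 22Rv1 pair, of 9 each. The same-numbered library was the closest match in 5, 3 and 4 of these pairs. The low counts of UGT2B4, UGT2B7, and, in 22Rv1, UGT2B17 and UGT2B28 limit what these libraries can show.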
